A study of Mus musculus with 9 samples.

Results

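Genes that the tumor suppressor p53 switches on were followed in mouse neuroblastoma tumors with and without radiation, together with p53 itself and genes that control it. The figures call all of these genes p53 target genes. The set holds 35 mouse genes chosen by name from textbook knowledge of the p53 pathway among 54429 gene symbols in the count table. The choice was made with earlier results of these data known. All 35 were present in the table, and 34 of them were among the 15931 genes with enough counts to test. The exception was Trp73, a relative of p53.

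p53, encoded by Trp53 in mice, is a transcription factor that is held low in unstressed cells because the ubiquitin ligase Mdm2 marks it for destruction. Ionizing radiation breaks DNA, the kinases that sense the breaks free p53 from Mdm2, and p53 then turns on genes that stop the cell cycle, start apoptosis, repair DNA or feed back on p53 itself. Mdm2 and Cdkn1a, the gene of the cell cycle inhibitor p21, are the targets most often used as a readout of this response.

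NB9464 is a mouse neuroblastoma line with amplified MYCN, and its cells were placed under the skin of wild-type C57BL/6 mice that were a few weeks old. Treatment started once a tumor measured 250 mm3. Vehicle tumors (n = 3) were given the vehicle. The R788 + anti-PDL1 tumors (n = 3) received R788 (fostamatinib, an oral inhibitor of the kinase Syk, 50 mg/kg) and an antibody against the checkpoint ligand PDL1. The Rad + R788 + anti-PDL1 tumors (n = 3) received the same pair of agents and 10 Gy of radiation, and are called irradiated replicates 1 to 3. Every irradiated tumor thus also carried both drugs, and tumors given radiation alone were not analysed here. The sources used here do not give the time between irradiation and tumor collection.

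RNA came from whole tumors, so fewer cells of a type and less RNA per cell cannot be told apart. Total estimated counts per library ranged from 18276683 to 23397886, and 3 counts, the upper limit that a count of 0 allows, corresponded to 0.115 to 0.221 CPM, the count scaled to library size with TMM. Irradiated replicate 1 stood apart. Across genes, r between its log2 CPM and that of the remaining 8 tumors was 0.86 to 0.91, whereas the lowest r among those 8 was 0.94, and its TMM normalization factor was 0.743 against 0.975 to 1.12. Of 10 marker genes of noradrenergic neuroblasts, the tyrosine hydroxylase gene Th had no count in any of the 9 libraries, whereas Hand2 lay between 325 and 867 CPM. Fibroblast markers summed to 2510 to 5370 CPM and macrophage markers to 305 to 1740 CPM, the latter highest in irradiated replicate 3.

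The proximal promoters of some members carry letters that match the sequence p53 reads. A p53 half-site, the consensus decamer, is 3 purines, C, 2 letters that are A or T, G and 3 pyrimidines, and it reads the same on both strands. RefSeq promoter windows (build GRCm38.p6, 250 bases before to 50 after a transcript start) were at hand for 27 of the 35 members. The decamer was present in 11 of these 27 members (40.7%), against 957 of 11333 tested genes (8.44%) and 2582 of 27025 genes in all (9.55%). A pair of decamers within 13 bases of each other was found in Cdkn1a alone among the members and in 20 genes in all (0.074%). The stretches below show that pair and the decamers of the feedback genes Mdm2 and Ppm1d, of Ccng1 and of the death effector Bax. Capitals mark the decamers, and the sequence runs 5′ to 3′ on the strand of the gene.
Cdkn1a, chr17:29090896-29090957, plus strand: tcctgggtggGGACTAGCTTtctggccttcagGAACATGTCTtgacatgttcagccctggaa
Mdm2, chr10:117710925-117710954, minus strand: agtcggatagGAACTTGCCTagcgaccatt
Ppm1d, chr11:85311112-85311141, plus strand: gggcgggggcGAGCTTGCTCttcttgactc
Ccng1, chr11:40755452-40755481, minus strand: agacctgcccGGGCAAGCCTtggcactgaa
Bax, chr7:45467080-45467109, minus strand: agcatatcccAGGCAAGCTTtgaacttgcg
The Cdkn1a pair lies just before the upstream of its 2 RefSeq transcript starts, which is 2790 bases ahead of the other. Of the other motifs searched on both strands, CACGTG was in 29.6% of the members against 11.4% of tested genes, CCAAT in 55.6% against 42.8%, GGGCGG in 85.2% against 65.9%, and TATAAA in 11.1% against 9.38%. A match of letters is a description of the window and not a mapped site.

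No member passed the test when irradiated tumors were set against tumors given R788 + anti-PDL1 alone, groups that differ by radiation. Here 0 of 34 members passed edgeR's quasi-likelihood test at a Benjamini-Hochberg adjusted p under 0.05, where 1 of 15931 genes did (0.00628%). At an unadjusted p under 0.05, 7 members passed (20.6%), against 18.4% of all genes. Of these members 4 were higher and 3 lower in irradiated tumors, where 11.7% and 6.65% of all genes were. The groups did not overlap for 11 members (32.4%), 4 of them higher and 7 lower, against 27.4% of all genes (14.2% higher and 13.2% lower). The median log2 fold change of the members was 0.01, beside 0.04 for all genes, and 17 of 34 lay above 0 (all genes, 52.5%). The upper end of the 95% interval stayed under a doubling (log2 fold change of 1) for 23 of 34 members, against 56.7% of all genes. DESeq2 called 1 member, Cdkn1a, where it called 4.22% of the genes that it gave an adjusted p.

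Irradiated tumors were next compared with vehicle tumors. Again 0 of 34 members passed in edgeR, where 7 genes did (0.0439%). At an unadjusted p under 0.05 there were 4 members (11.8%), 2 higher and 2 lower, against 13.2% of all genes (7.71% higher and 5.51% lower). There was no overlap between groups for 7 members (20.6%), 2 higher and 5 lower, against 20.5% of all genes (9.27% higher and 11.2% lower). The median was −0.04, beside 0.05 for all genes, with 16 of 34 above 0 (all genes, 52.9%), and the interval ended under a doubling for 24 members (all genes, 56.6%). DESeq2 called 2 members, Fas and Steap3, where it called 3.16% of genes.

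The comparison without radiation gives the background of the drugs. For R788 + anti-PDL1 against vehicle, 0 of 34 members passed in edgeR, where 108 genes did (0.678%). At an unadjusted p under 0.05 there were 8 members (23.5%), 3 higher and 5 lower, against 11.7% of all genes (5.96% higher and 5.69% lower). There was no overlap between groups for 16 members (47.1%), 9 higher and 7 lower, against 30.1% of all genes (13.6% higher and 16.5% lower). The median was −0.01, beside −0.02 for all genes, 17 of 34 lay above 0 (all genes, 48.4%), and DESeq2 called Cdkn1a where it called 3.87% of genes. The 3 comparisons share their groups, so their values are given side by side and were not correlated.

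**Figure D1:**
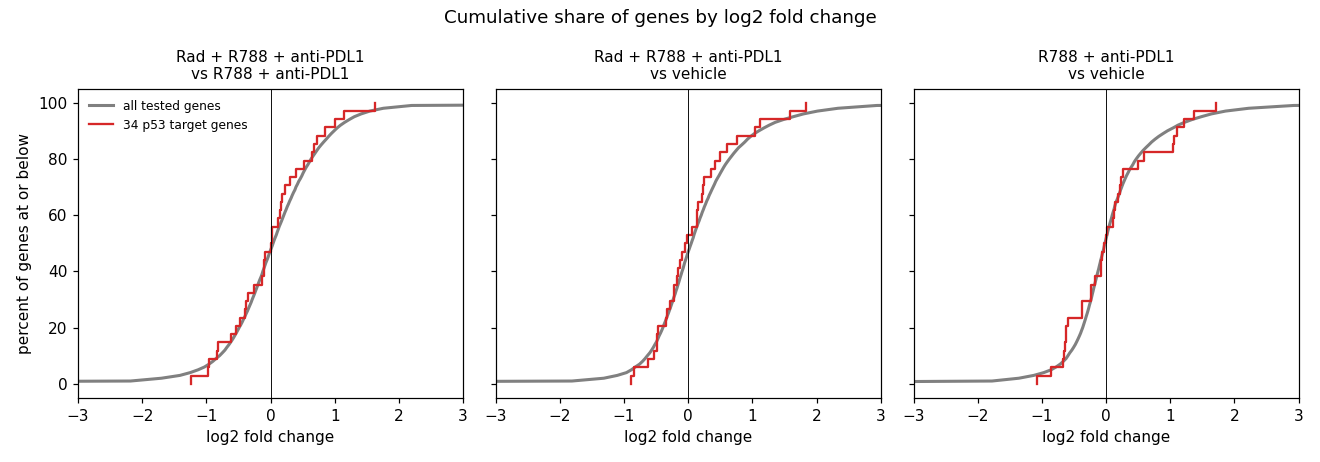
Each panel plots the percent of genes at or below a given log2 fold change (x axis) in 1 comparison, in red for the 34 tested p53 target genes and in grey for all tested genes. The red steps run on both sides of the grey curve's middle, with medians of 0.01, −0.04 and −0.01 for the p53 target genes.

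**Figure D2:**
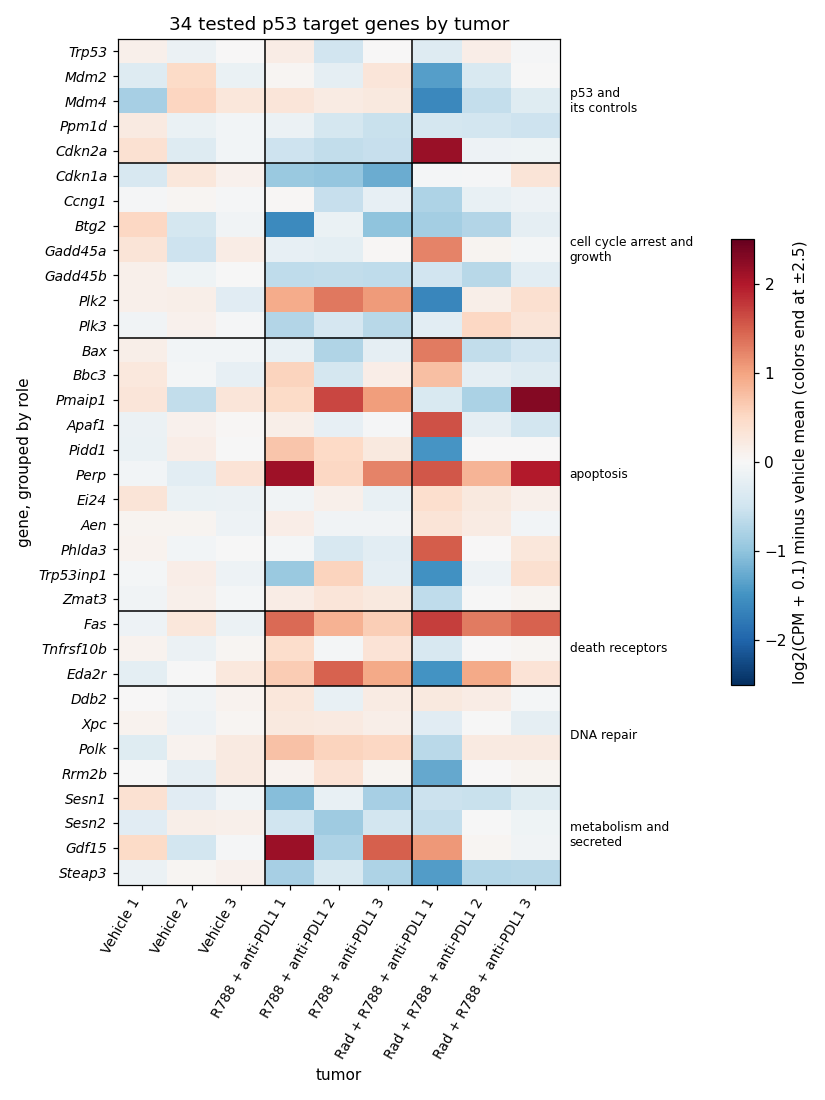
Each row is a tested p53 target gene, grouped by role, and each column a tumor, with color showing log2(CPM + 0.1) minus the vehicle mean of that gene. Irradiated replicate 1 holds reds for Cdkn2a, Apaf1, Phlda3 and Bax beside blues for Mdm4, Plk2 and Pidd1 and has a median over genes of −0.38, against 0.00 and −0.04 in irradiated replicates 2 and 3.

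The irradiated tumors were not alike among themselves. In irradiated replicate 1, 9 members were at their highest level of all 9 libraries and 13 at their lowest, together 64.7% of the 34, and the share over all tested genes was 64.9%. The other irradiated libraries held 3 such members each. The members at their highest there had a median exon length of 2062 bases and those at their lowest of 5553 bases, and over all tested genes the medians were 2857 and 5645 bases. The part that transcript length plays in these levels was not tested. The median of the members against the vehicle mean was −0.38 in irradiated replicate 1, 0.00 in replicate 2 and −0.04 in replicate 3, beside −0.07, −0.01 and 0.00 for all genes. Without irradiated replicate 1, again 0 members passed in edgeR in either comparison with the irradiated group. At an unadjusted p under 0.05 there were then 6 members against R788 + anti-PDL1 (17.6%, beside 16.1% of all genes) and 5 against vehicle (14.7%, beside 16.4%). The groups then did not overlap for 13 members against R788 + anti-PDL1 (all genes, 37.7%), 5 higher and 8 lower (20.7% and 17% of all genes). Against vehicle they did not overlap for 14 (all genes, 37.4%), 6 higher and 8 lower (17.2% and 20.2% of all genes).

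In what follows, values in CPM are given for replicates 1 to 3 of vehicle, then of R788 + anti-PDL1, then of the irradiated group, and ± marks the standard error of a log2 fold change. Adjusted p-values are from edgeR, and gene positions are exonic and intronic spans from start to end in GENCODE M21 (GRCm38). Per kilobase of exon in vehicle tumors, the members ranged from Cdkn2a (150 CPM per kb), Trp53 (74.2) and Bax (47.4) down to Pmaip1 (0.232), Perp (0.125) and Trp73 (0.0226).

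Trp53 (chr11:69580359-69591873) itself did not separate the groups. It was at 328, 271 and 302 CPM in vehicle, 340, 214 and 300 in R788 + anti-PDL1, and 241, 334 and 293 in irradiated tumors. The groups overlapped. Its log2 fold change was 0.02 ± 0.22 against R788 + anti-PDL1 (adjusted p = 0.964) and −0.05 ± 0.22 against vehicle (adjusted p = 0.917), with intervals of −0.48 to 0.52 and −0.55 to 0.45. Radiation acts on p53 mainly at the protein level, which these data do not measure. Trp73 had 4, 1 and 2 counts in vehicle, 1, 1 and 1 in R788 + anti-PDL1 and 0, 20 and 5 in irradiated tumors, too few to test.

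No inhibitor of p53 was higher in every irradiated tumor than in every tumor of another group. Mdm2 (chr10:117688875-117710758), the ligase that p53 induces to limit itself, was at 34.2, 59.7 and 38.3 CPM in vehicle, 44.0, 36.7 and 53 in R788 + anti-PDL1, and 16.4, 32.8 and 42.5 in irradiated tumors. Its groups overlapped, and irradiated replicate 1 was the lowest of the 9. The log2 fold change was −0.54 ± 0.35 against R788 + anti-PDL1 (interval −1.33 to 0.25, adjusted p = 0.407) and −0.53 ± 0.35 against vehicle (interval −1.32 to 0.26, adjusted p = 0.489), so a doubling lay outside both intervals. Without irradiated replicate 1 the values were −0.23 and −0.20.

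Mdm4, a partner of Mdm2 that blocks p53 without degrading it, was at 47.3, 122 and 102 CPM in vehicle, 103, 97.2 and 99.1 in R788 + anti-PDL1, and 27.4, 55.5 and 68.0 in irradiated tumors. All irradiated values lay below all R788 + anti-PDL1 values, while vehicle replicate 1 fell among the irradiated ones. The log2 fold change against R788 + anti-PDL1 was −0.98 ± 0.39 (adjusted p = 0.246) and was −0.68 ± 0.32 without irradiated replicate 1. Ppm1d, which encodes the phosphatase Wip1 that shuts the damage signal off, was at 27.3, 20.6 and 22.3 CPM in vehicle, 20.9, 17.1 and 15.7 with the drugs, and 17.1, 16.8 and 16.1 after radiation. Irradiated values lay below vehicle values (log2 fold change −0.49 ± 0.21, adjusted p = 0.363) and within those of R788 + anti-PDL1 (−0.10 ± 0.21).

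Cdkn2a (chr4:89274471-89294653) was the most abundant member per length. The locus encodes p16 and p19Arf, the second of which frees p53 from Mdm2, and a gene count cannot separate these products. It was at 225, 138 and 165 CPM in vehicle, 120, 113 and 116 in R788 + anti-PDL1, and 767, 157 and 159 in irradiated tumors. A single library carried the high value, since irradiated replicates 2 and 3 lay within the vehicle range. The log2 fold change against R788 + anti-PDL1 was 1.63 ± 0.56 (adjusted p = 0.225), and it was 0.45 ± 0.19 (adjusted p = 0.289) without irradiated replicate 1. Against vehicle it was 1.04 ± 0.56 (adjusted p = 0.418) with that library and −0.12 without it.

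Cdkn1a, among the cell cycle genes, gave the lowest p of all members in both comparisons with the R788 + anti-PDL1 group. It was at 19.4, 31.2 and 27.5 CPM in vehicle, 13.4, 13 and 10.8 in R788 + anti-PDL1, and 24.7, 24.9 and 32 in irradiated tumors. The irradiated values lay above all those of R788 + anti-PDL1, and they lay beside those of vehicle rather than above them. Against R788 + anti-PDL1 the log2 fold change was 1.14 ± 0.24, a fold of 2.20 (unadjusted p = 0.000822 and adjusted p = 0.141 in edgeR). This was the 92nd lowest p of 15931.

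In the reverse step, R788 + anti-PDL1 against vehicle, Cdkn1a had a log2 fold change of −1.07 ± 0.24 (adjusted p = 0.0879). Irradiated against vehicle it was 0.06 ± 0.23 (interval −0.46 to 0.59, adjusted p = 0.905), so a doubling over vehicle lay outside the interval. DESeq2 called the first 2 of these, with log2 fold changes of 1.13 (adjusted p = 0.00259) and −1.05 (adjusted p = 0.00472), and the 11 alternatives gave adjusted p-values of 0.00259 to 0.528 for the first and 0.00472 to 0.375 for the second. The R788 + anti-PDL1 group enters both differences, and the difference from R788 + anti-PDL1 did not hinge on irradiated replicate 1 (1.21 ± 0.23 without it). An antisense transcript, AC167363.2, overlaps Cdkn1a (chr17:29090976-29100727), and the strand setting of the counts was not stated.

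The polo-like kinases Plk2 and Plk3, stress-induced brakes of the cycle, were highest and lowest, respectively, with the drugs. Plk2 (chr13:110395046-110400844) was at 10.4, 10.6 and 7.84 CPM in vehicle, 18.3, 24.0 and 20.1 in R788 + anti-PDL1, and 3.02, 10.6 and 12.6 in irradiated tumors. The drug group was above both others without overlap, and irradiated replicates 2 and 3 were at or just above the vehicle level. Its log2 fold change was −1.24 ± 0.44 against R788 + anti-PDL1 (adjusted p = 0.229), and that of R788 + anti-PDL1 against vehicle was 1.11 ± 0.44 (adjusted p = 0.362). In a fit of the 6 libraries compared, the second passed at 1.15 (adjusted p = 0.0308, range over alternatives 0.0308 to 0.767). Plk3 was at 5.13, 5.88 and 5.37 CPM in vehicle, 3.26, 4.05 and 3.32 with the drugs, and 4.50, 7.81 and 6.80 after radiation, so that R788 + anti-PDL1 lay lowest. Its log2 fold change against R788 + anti-PDL1 was 0.85 ± 0.32 (adjusted p = 0.236).

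Gadd45b, a stress gene that binds cell cycle kinases, was at 16.7, 14.2 and 15.1 CPM in vehicle, 9.83, 9.97 and 9.80 in R788 + anti-PDL1, and 10.9, 9.44 and 12.8 in irradiated tumors. Both treated groups lay below vehicle without overlap, with log2 fold changes of −0.64 ± 0.22 (adjusted p = 0.281) for the drugs and −0.47 ± 0.22 (adjusted p = 0.385) with radiation added. Its relative Gadd45a, the classic growth arrest gene of irradiated cells, ranged from 4.36 to 7.90 CPM in 8 libraries and was at 15.0 in irradiated replicate 1. Ccng1 (cyclin G1, which acts through Mdm2) lay between 32.8 and 58.2 CPM and Btg2, an antiproliferative cofactor, between 7.10 and 30.8. Neither had an unadjusted p under 0.05 in edgeR in any comparison. Ccng1 was lower in every irradiated tumor than in every vehicle tumor, as were 11.2% of all genes. Its log2 fold change against vehicle was −0.33 ± 0.23, and −0.13 ± 0.17 without irradiated replicate 1. Its R788 + anti-PDL1 values overlapped those of both other groups.

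**Figure D3:**
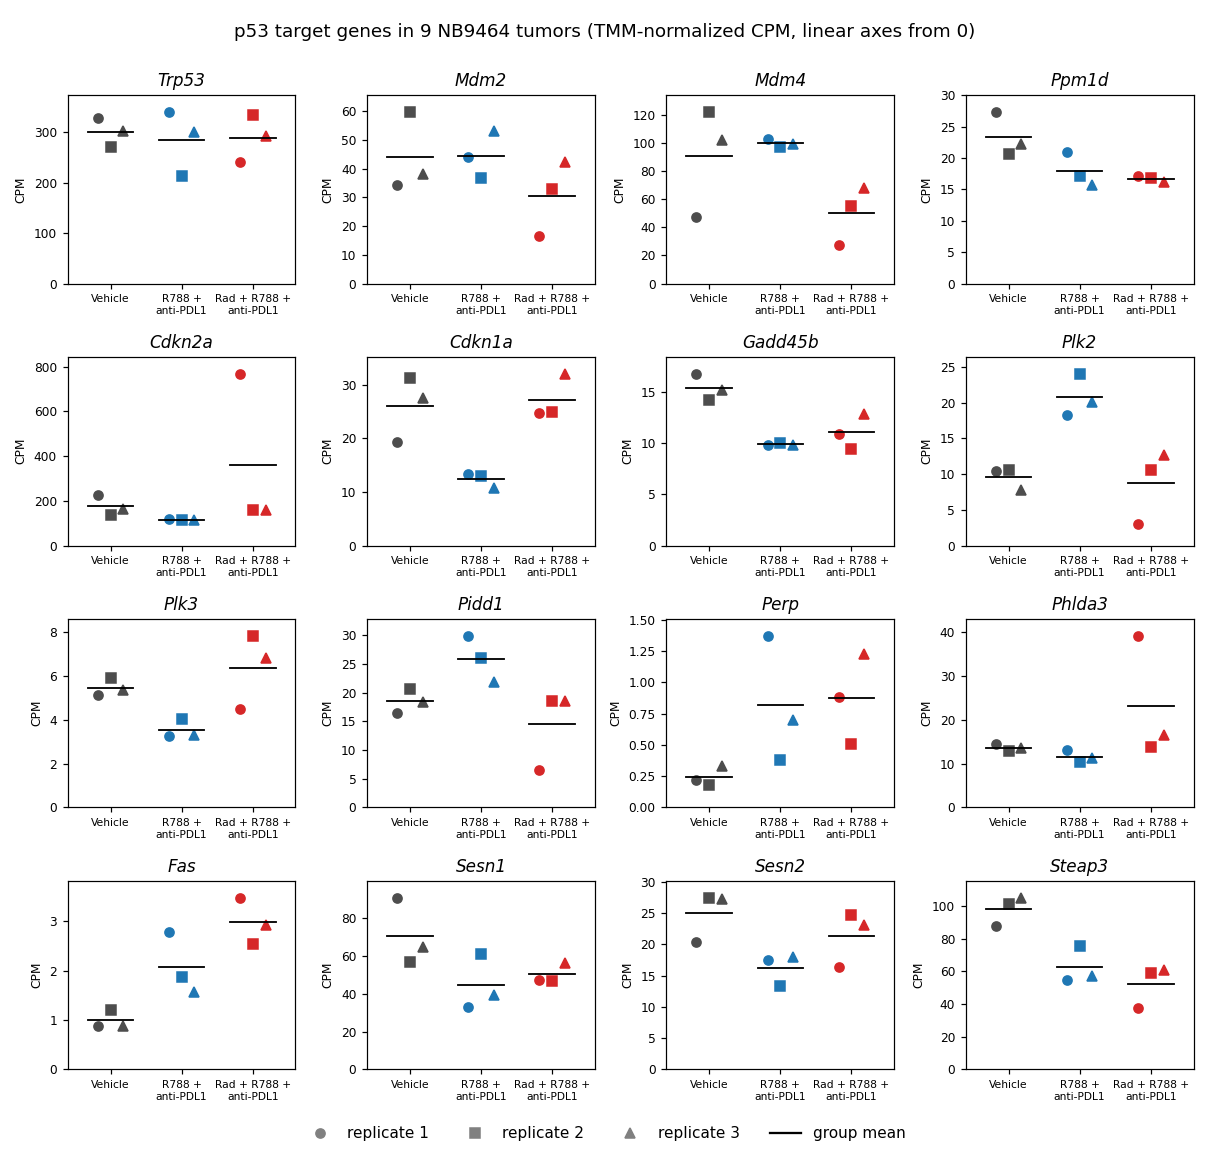
Each panel shows 1 of 16 genes in CPM on a linear axis from 0, with a symbol per tumor (circle, square and triangle for replicates 1 to 3) and a line at the group mean. Cdkn1a is lowest in the 3 R788 + anti-PDL1 tumors (10.8 to 13.4) and at vehicle level in the irradiated ones, while Cdkn2a and Phlda3 owe their irradiated means to replicate 1.

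Several apoptosis genes split the irradiated tumors. Phlda3, a brake on Akt signaling, was at 14.4, 12.9 and 13.6 CPM in vehicle, 13.1, 10.3 and 11.3 in R788 + anti-PDL1, and 39.2, 13.8 and 16.6 in irradiated tumors. Its log2 fold change against R788 + anti-PDL1 was 1.0 ± 0.37 (adjusted p = 0.234), and 0.41 ± 0.20 without irradiated replicate 1. Bax, which opens the mitochondrial outer membrane, was at 184 CPM in irradiated replicate 1, while irradiated replicates 2 and 3, at 48.9 and 53.7, lay below the vehicle range of 70.6 to 82.5. The log2 fold change of Bax against vehicle was thus 0.35 ± 0.46 with all libraries and −0.51 ± 0.18 (adjusted p = 0.225) without irradiated replicate 1, and Gm45808 overlaps it on the same strand. Apaf1, the scaffold of the apoptosome, was at 104 CPM in irradiated replicate 1 and at 25.0 to 38.2 elsewhere, and its log2 fold change against R788 + anti-PDL1 turned from 0.64 ± 0.47 to −0.31 ± 0.15 when that library was left out.

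The BH3-only genes through which p53 triggers apoptosis did not separate irradiated tumors. Bbc3 (Puma) was at 28.6, 14.5 and 13.6 CPM in irradiated tumors, the first above and the others within the 12.5 to 25.0 of the other 6 libraries. Pmaip1 (Noxa) was at 0.443, 0.304 and 3.33 CPM there, so that 2 irradiated libraries were near the floor and the third was the highest of the 9. The log2 fold changes against R788 + anti-PDL1 were 0.00 ± 0.35 and −0.08 ± 0.85.

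Pidd1, a death domain protein that activates caspase-2, was at 16.5, 20.6 and 18.4 CPM in vehicle, 29.9, 26.1 and 21.8 in R788 + anti-PDL1, and 6.56, 18.5 and 18.6 in irradiated tumors. The drug group lay highest, and irradiated replicates 2 and 3 were at vehicle level. Its log2 fold change against R788 + anti-PDL1 was −0.83 ± 0.36 (adjusted p = 0.265), and −0.48 ± 0.18 without irradiated replicate 1. Perp, a membrane protein of desmosomes and a p53 death effector, had 4 to 6 counts per library in vehicle, or 0.221, 0.18 and 0.329 CPM. It was at 1.37, 0.382 and 0.697 CPM with the drugs and 0.885, 0.507 and 1.23 after radiation, and both treated groups lay above vehicle. The log2 fold changes were 1.72 ± 0.67 (adjusted p = 0.353) and 1.83 ± 0.68 (adjusted p = 0.328), and 0.11 ± 0.62 between the treated groups. Keratinocyte markers summed to 5.66 to 8.89 CPM in vehicle, 2.69 to 65.3 with the drugs and 47.3 to 75.5 after radiation. Krt5 made up most of these sums. Krt14 went the other way, at 0.221, 1.84 and 2.36 CPM in vehicle and at 0 to 0.101 in treated tumors. In each library 3 to 5 of the 7 markers were at 0, and Krt1 was at 0 in 8 libraries. The part of keratinocytes in the level of Perp was not tested.

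The remaining apoptosis genes had no unadjusted p under 0.05 in edgeR in any comparison. Ei24, an endoplasmic reticulum protein, lay between 47.2 and 72.1 CPM, Aen, a nuclease that degrades DNA in dying cells, between 29.4 and 39.9, Zmat3, an RNA-binding protein, between 34.2 and 65.4, and Trp53inp1, a cofactor in stress kinase signaling and autophagy, between 3.84 and 16.4. Of these Zmat3 was lower in every irradiated tumor than in every R788 + anti-PDL1 tumor, with a log2 fold change of −0.40 ± 0.21. Its drug group also lay above vehicle without overlap, and its irradiated and vehicle values overlapped.

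Among death receptors, Fas (chr19:34290666-34327772) had the lowest p against vehicle. It was at 0.883, 1.21 and 0.877 CPM in vehicle, 2.78, 1.87 and 1.56 in R788 + anti-PDL1, and 3.47, 2.54 and 2.92 in irradiated tumors, from 16 to 64 counts per library. All treated tumors lay above all vehicle tumors, and the treated groups overlapped each other. The log2 fold change was 1.58 ± 0.42 for irradiated against vehicle (fold 2.98, adjusted p = 0.221) and 1.05 ± 0.41 for the drugs against vehicle (adjusted p = 0.354), and the step from the drugs to radiation was 0.52 ± 0.40 (interval −0.38 to 1.42, adjusted p = 0.476). DESeq2 called the first, at 1.60 (adjusted p = 0.0155, range over alternatives 0.0155 to 0.706). Fas is also expressed by lymphocytes. The 8 T cell markers summed to 3.50 to 8.94 CPM in vehicle, 15.3 to 29.8 with the drugs and 6.05, 11.4 and 43.2 after radiation. With the drugs most of the sum came from Cd4 (22.9, 2.03 and 12.2 CPM) and Lck (6.00, 9.82 and 3.81). No other marker exceeded 1.38 CPM in that group, and Cd3e was at 0.135 to 0.274 CPM in vehicle and 0.041 to 0.191 with the drugs. The part of T cells in the level of Fas was not tested. Tnfrsf10b, the receptor of the ligand Trail, lay between 13.3 and 23.9 CPM, and Eda2r, a receptor of ectodysplasin, between 1.48 and 12.3, without an unadjusted p under 0.05 in edgeR.

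In edgeR 0 of 4 DNA repair members had an unadjusted p under 0.05 in any comparison, whereas DESeq2 had 1 for irradiated against R788 + anti-PDL1 and 1 for the drugs against vehicle, and called 0. Ddb2 and Xpc, which find damage for nucleotide excision repair, lay at 13.6 to 18.7 and 21.6 to 31.4 CPM. Polk, a translesion polymerase, and Rrm2b, the p53-induced subunit of ribonucleotide reductase, lay at 5.75 to 15.4 and 5.24 to 16.7 CPM. Xpc, Polk and Rrm2b were lower in every irradiated tumor than in every R788 + anti-PDL1 tumor, as were 13.2% of all genes. Their log2 fold changes were −0.38 ± 0.18, −0.61 ± 0.30 and −0.47 ± 0.35, and that of Ddb2 was 0.02 ± 0.21. Irradiated and vehicle tumors overlapped for all 4 genes, while Xpc and Polk were higher with the drugs than in vehicle without overlap. Polk was at 7.40 to 10.7 CPM in vehicle, 13.2 to 15.4 with the drugs and 5.75, 10.8 and 10.8 after radiation.

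Steap3 (chr1:120190757-120272705) was lower in treated than in vehicle tumors. This gene, which encodes an iron reductase, was at 88.0, 101 and 105 CPM in vehicle, 55.0, 75.4 and 57.0 in R788 + anti-PDL1, and 37.3, 59.3 and 60.6 in irradiated tumors. No treated value reached the vehicle range. The log2 fold change was −0.90 ± 0.23 for irradiated tumors (adjusted p = 0.219) and −0.65 ± 0.23 for the drugs (adjusted p = 0.300), and between the treated groups it was −0.25 ± 0.23. DESeq2 called the first, at −0.88 (adjusted p = 0.0358, range over alternatives 0.0358 to 0.690).

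Sesn1 and Sesn2, sestrins that curb mTORC1 signaling, had their lowest group mean with the drugs. Sesn1 was at 90.7, 56.7 and 64.8 CPM in vehicle, 33.2, 61.2 and 39.1 in R788 + anti-PDL1, and 47.5, 47.0 and 56.5 in irradiated tumors. Sesn2 was at 20.3, 27.4 and 27.2 CPM in vehicle, 17.5, 13.3 and 18 in R788 + anti-PDL1, and 16.4, 24.6 and 23 in irradiated tumors. For the drugs against vehicle, the log2 fold changes were −0.67 ± 0.27 (adjusted p = 0.377) and −0.62 ± 0.24 (adjusted p = 0.349). Against R788 + anti-PDL1, the irradiated group was at 0.18 ± 0.27 and 0.39 ± 0.24. Gdf15, a secreted stress hormone, ranged from 0.841 to 6.97 CPM, with both extremes in the R788 + anti-PDL1 group.

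**Figure D4:**
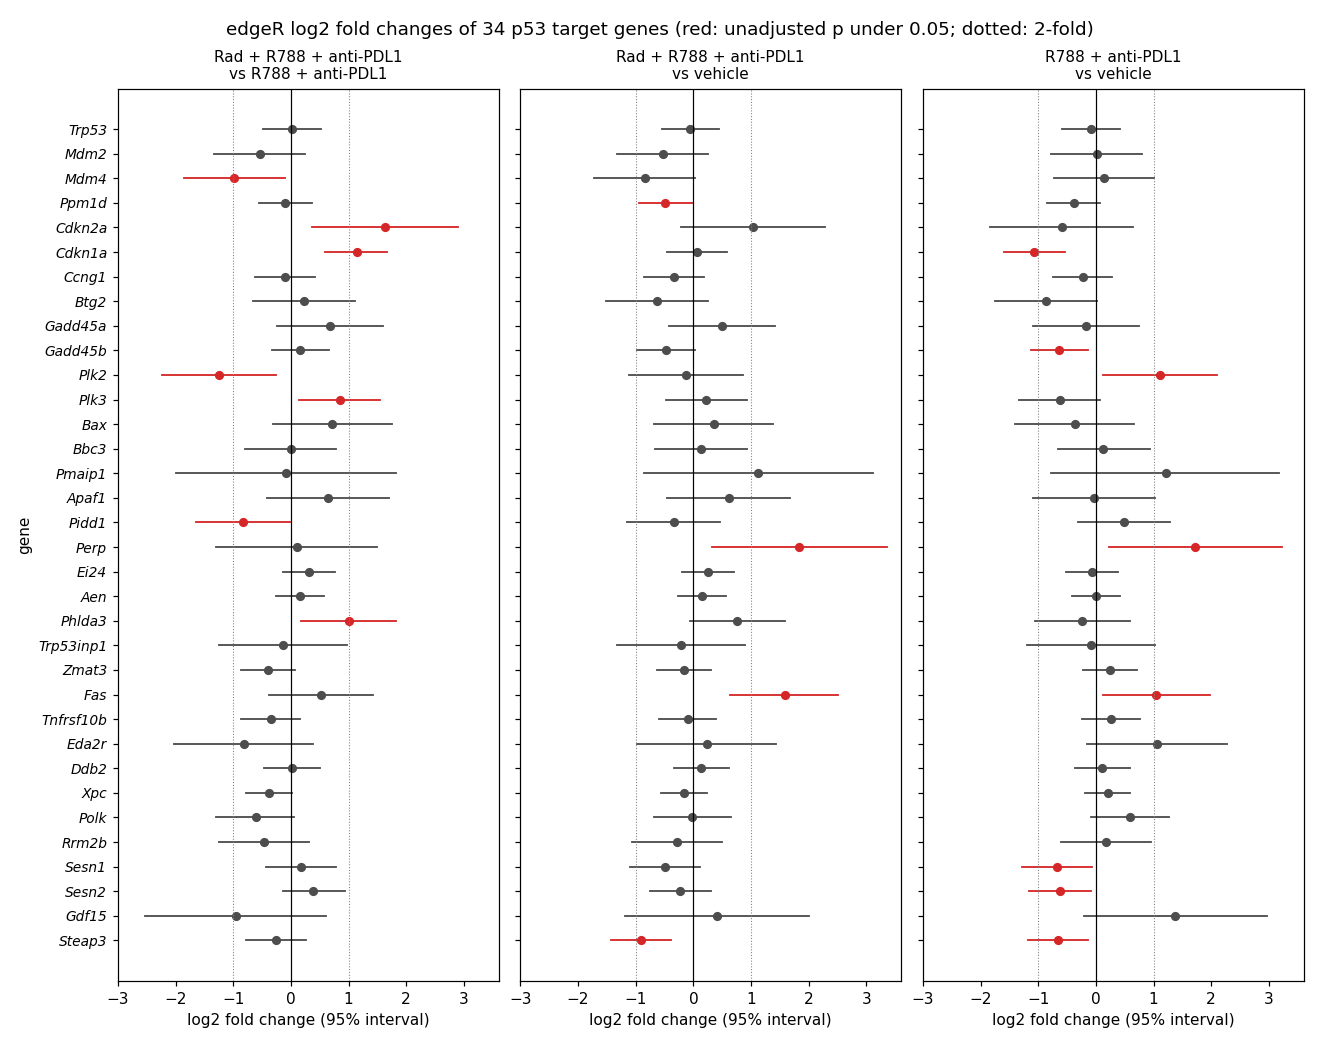
Points are edgeR log2 fold changes (x axis) of the 34 tested p53 target genes, lines their 95% intervals, dotted lines mark a 2-fold difference, and red marks an unadjusted p under 0.05 (7, 4 and 8 genes in the 3 panels). Cdkn1a is at 1.14 in the left panel, 0.06 in the middle and −1.07 in the right, and Mdm2 lies at −0.54, −0.53 and 0.02.

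Other genes of the pathway were read from 3 further lists. Of 29 tested genes in a second list of p53-induced genes, 10 had an unadjusted p under 0.05 in irradiated against R788 + anti-PDL1 tumors, or 34.5% against 18.4% of all genes, with 8 of them higher (all genes, 11.7%) and 2 lower (all genes, 6.65%), and 0 were called in edgeR and 2, Kank3 and Sfn, in DESeq2. Against vehicle there were 4, or 13.8% against 13.2% of all genes, 3 of them higher (all genes, 7.71%), with 0 called in edgeR and 1, Epha2, in DESeq2. For the drugs against vehicle 1 gene was called in edgeR, Kank3, which DESeq2 called too. The medians were 0.14, 0.04 and −0.09, beside 0.04, 0.05 and −0.02 for all genes. Irradiated replicate 1 stood apart in this list as well. In irradiated replicates 1 to 3 Fdxr was at 249, 106 and 91.0 CPM and Triap1 at 44.5, 19.3 and 21.8. Sulf2 went the other way, at 76.2, 209 and 205. Ak1 was closer together at 68.2, 51.7 and 48.5, above its 33.9 to 39.3 in vehicle and 32.1 to 41.6 with the drugs. Irradiated and R788 + anti-PDL1 tumors did not overlap for 8 genes of this list that were higher and 2 that were lower (all genes, 14.2% and 13.2%). Against vehicle there were 4 higher and 4 lower (all genes, 9.27% and 11.2%). Counts for this list without irradiated replicate 1 are not given.

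Kank3, a cytoskeletal scaffold also known in endothelium, was at 2.82, 2.38 and 2.80 CPM in vehicle, 7.36, 8.90 and 9.18 in R788 + anti-PDL1, and 3.32, 2.79 and 3.47 in irradiated tumors. It rose with the drugs (log2 fold change 1.67 ± 0.30, adjusted p = 0.0424), a call lost without vehicle replicate 2 or 3 or R788 + anti-PDL1 replicate 1 or 3, when no gene passed. It lay near vehicle in irradiated tumors (−1.41 ± 0.29 against R788 + anti-PDL1, adjusted p = 0.141). Rps28 overlaps it on the other strand. The 6 endothelial markers summed to 34.5 to 44.8 CPM in vehicle, 43.2 to 112 with the drugs and 47.6 to 59.4 after radiation, and their part in Kank3 was not tested. Sfn, the 14-3-3 sigma protein that halts the cycle at G2, was at 8.23, 8.89 and 8.93 CPM in vehicle and 4.10, 6.15 and 4.18 in R788 + anti-PDL1. In irradiated tumors it was at 27.3, 7.41 and 8.49 CPM. The drug group lay below both others without overlap, and irradiated replicates 2 and 3 did not exceed the vehicle range.

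Upstream of p53, 22 tested kinases and cofactors gave 0 calls in any comparison by edgeR or DESeq2. At an unadjusted p under 0.05 edgeR had 5 of them for irradiated against R788 + anti-PDL1, 2 for irradiated against vehicle and 1 for the drugs against vehicle, and DESeq2 had 5, 3 and 1. The edgeR counts were 22.7%, 9.09% and 4.55% of the list, beside 18.4%, 13.2% and 11.7% of all genes. Atm, the kinase that signals DNA breaks to p53, was at 24.3, 46.9 and 51.3 CPM in vehicle, 86.9, 57.1 and 60.2 in R788 + anti-PDL1, and 35.2, 37 and 35 in irradiated tumors. The irradiated values lay below all those of the drug group (log2 fold change −0.93 ± 0.29, adjusted p = 0.222). Cop1, another ligase of p53, was at −0.75 ± 0.21 for irradiated against vehicle (adjusted p = 0.222). It was at 80.2, 101 and 82 CPM in vehicle, 77.3, 62.3 and 56.6 in R788 + anti-PDL1, and 49.3, 61.7 and 45 in irradiated tumors. Both treated groups lay below vehicle without overlap, and they overlapped each other.

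Downstream of p21, cell cycle genes silenced by the DREAM repressor complex formed the last list. For irradiated against drug-treated tumors, of 23 tested genes 4 were higher and 1 lower at an unadjusted p under 0.05 (all genes, 11.7% and 6.65%), the median was −0.05 beside 0.04, and edgeR and DESeq2 called 0. Cdc25c, the phosphatase that starts mitosis, was at 46.6, 33.5 and 37.5 CPM in vehicle, 15.7, 30.4 and 19.7 in R788 + anti-PDL1, and 66.8, 35.6 and 38.2 in irradiated tumors. Like Cdkn1a, it was lowest with the drugs (log2 fold change 1.09 ± 0.32 for irradiated against drugs, adjusted p = 0.222). Against vehicle, 2 of the 23 (8.7%, beside 5.51% of all genes) were lower in irradiated tumors at an unadjusted p under 0.05, Top2a (−0.75 ± 0.24) and Mcm2 (−0.71 ± 0.24), the median was −0.20 beside 0.05, and both tools called 0. For the drugs against vehicle the median was −0.18 beside −0.02, 1 of 23, Cdc25c, was lower at an unadjusted p under 0.05 (4.35%, beside 5.69% of all genes), and both tools called 0. There 21 of 23 log2 fold changes lay below 0, and the groups did not overlap for 9 of 23 (39.1%), all lower with the drugs, beside 16.5% of all genes. For irradiated against vehicle 16 of 23 lay below 0. The groups did not overlap for 7 of 23 (30.4%), all lower in irradiated tumors, beside 11.2% of all genes.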

How the data were processed

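RNA-seq libraries of 9 whole tumors, 3 per group, were grouped by the treatment label. The submitters' processing notes name mouse build mm10, STAR 2.6.1d and Salmon 1.4.0. The estimated counts that the authors deposited, a whole number for each gene symbol and tumor, were not normalized. Strandedness was not given in the sources used here. The labels name whole tumor as tissue but macrophages in the extraction text, and the paper's methods give another sequencer than the labels.

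The counts were used as deposited. Genes were filtered with filterByExpr (minimum count 10), normalized by TMM and tested with the quasi-likelihood method of edgeR 4.0.16 under R 4.3.3 (robust, two-sided), with all 9 libraries and a coefficient per group, at a Benjamini-Hochberg adjusted p under 0.05 over all 15931 genes. SE was taken as the log2 fold change over the root of F, and 95% intervals from the same fit are not adjusted. The test was checked on simulated counts. The labels do not say that the 3 libraries of a group came from separate animals, so p-values measure only the spread between these samples, which may be technical. An exact permutation test of 3 against 3 cannot go below 0.1 and was not used. The floor of 3 counts covers counting error only.

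Every member was named. Values in each library were given for Trp53, Cdkn1a, Mdm2 and members with an unadjusted p under 0.05 in any comparison, and other members by range. From the other lists, called genes and genes among the 3 lowest p-values of a list and comparison were named. Examples of the spread among irradiated tumors were named too. The members and lists were chosen with earlier results of these data known. Identifiers, exon lengths and overlaps came from GENCODE M21 (GRCm38), in which 98.8% of symbols matched. Alternatives were DESeq2 1.42.0 with its size factors, RLE factors, no low-count filter, the 6 libraries compared alone, a replicate block, and leaving out each library. The counts of members without irradiated replicate 1 whose groups did not overlap were added after seeing the data. Some genes of the further lists are not reported here.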

Additional observations from a re-analysis of the deposited data

How the results depend on the processing

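edgeR called 0 members in the 3 comparisons (irradiated against drugs, irradiated against vehicle, drugs against vehicle) under every alternative except 1, the fit of the 6 libraries compared, which called 2 (Cdkn1a at −1.03, adjusted p = 0.0428, and Plk2 at 1.15, adjusted p = 0.0308) for drugs against vehicle. DESeq2 called 1, 2 and 1. Members with an unadjusted p under 0.05 (7, 4 and 8) numbered 8, 7 and 12 in DESeq2 and 6, 2 and 10 in the 6-library fits. Leaving out a library gave 3 to 9, 3 to 7 and 3 to 8 such members. For irradiated against drugs there were 4, 3 and 3 without R788 + anti-PDL1 replicates 1, 2 and 3, and for irradiated against vehicle 7 without irradiated replicate 3. For drugs against vehicle there were 3, 5 and 4 without vehicle replicates 1, 2 and 3, and 4 and 3 without R788 + anti-PDL1 replicates 1 and 3. Leave-one-out fits gave medians of −0.10 to 0.06, −0.17 to 0.04 and −0.07 to 0.06. Without irradiated replicate 1, 14 members in place of 7 did not overlap vehicle. Calls over all genes (1, 7 and 108) were 654, 555 and 720 by DESeq2, 24, 70 and 199 without the filter, 0, 1 and 594 in the 6-library fits, and 0 to 21, 1 to 57 and 0 to 75 with a library left out. The 0 calls for drugs against vehicle came without vehicle replicate 2 or 3, or R788 + anti-PDL1 replicate 1 or 3. The cause was not tested.

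Of single members, Ddb2 reversed to −0.01 without the filter (irradiated against drugs) and Apaf1 to 0.01 in the 6-library fit (drugs against vehicle). Same-numbered tumors deviated together at correlations of −0.05 to 0.23. With 3 libraries per group this check cannot exclude a pairing by number, and the main fit used no pairing. With the replicate block, 0 members were called, 7, 5 and 6 had an unadjusted p under 0.05, and 0, 3 and 0 genes were called in all.

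Log2 fold changes of members with both signs among the fits with a library left out, or a sign opposite to the fit of all libraries, ran over the ranges given next. For irradiated against drugs, these were Ppm1d −0.19 to 0.02, Ccng1 −0.25 to 0.08, Btg2 −0.05 to 0.70, Trp53 −0.15 to 0.17, Pmaip1 −1.97 to 0.39, Perp −0.24 to 0.69, Trp53inp1 −0.58 to 0.33, Ddb2 −0.11 to 0.11, Bax −0.16 to 1.03, Apaf1 −0.31 to 0.97 and Bbc3 (0.00 with all libraries) −0.42 to 0.25. For irradiated against vehicle, these were Trp53 −0.18 to 0.09, Cdkn1a −0.10 to 0.21, Polk −0.16 to 0.25, Cdkn2a −0.12 to 1.39, Gadd45a −0.01 to 0.73, Plk2 −0.49 to 0.30, Bax −0.51 to 0.66, Bbc3 −0.27 to 0.32, Apaf1 −0.32 to 0.94, Pidd1 −0.56 to 0.04, Trp53inp1 −0.67 to 0.19, Zmat3 −0.30 to 0.05, Tnfrsf10b −0.18 to 0.06, Rrm2b −0.50 to 0.06, Gdf15 −0.04 to 0.71, Eda2r −0.32 to 0.69 and Pmaip1 −0.76 to 1.59. For drugs against vehicle, these were Trp53 −0.23 to 0.09, Mdm2 −0.13 to 0.29, Mdm4 −0.15 to 0.41, Gadd45a −0.40 to 0.02, Ei24 −0.16 to 0.14, Apaf1 −0.12 to 0.05, Bbc3 −0.12 to 0.36, Trp53inp1 −0.55 to 0.20 and Aen (0.00 with all libraries) −0.10 to 0.05.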
